A study of Mus musculus with 116 samples.

Results

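The genes described here are 29 genes of cholesterol and fatty acid synthesis and their regulators, out of the 53379 gene identifiers of the count tables. They were taken from a list of names, and the list was drawn up with earlier results of these counts known, so the number of them that passed a test describes the list and supports no statement about it. Of the 29 genes, 7 act between acetyl-CoA and farnesyl pyrophosphate (Acat2, Hmgcs1, Mvk, Pmvk, Mvd, Idi1 and Fdps), 3 make squalene and lanosterol (Fdft1, Sqle and Lss), and 8 turn lanosterol into cholesterol (Cyp51, Tm7sf2, Msmo1, Nsdhl, Hsd17b7, Ebp, Sc5d and Dhcr7). A further 5 control the pathway or carry sterols (Srebf1, Srebf2, Scap, Insig1 and Stard4), and 6 make fatty acids (Acly, Acaca, Fasn, Elovl6, Scd1 and Scd2).

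Cells build cholesterol from acetyl-CoA by way of mevalonate, isoprenoid units, squalene and lanosterol. When sterol in the endoplasmic reticulum runs low, SCAP escorts the SREBP transcription factors to the Golgi, where proteases release their active part, and INSIG1 holds the complex back when sterol is plentiful. SREBP2, the product of Srebf2, acts mainly on sterol genes, and SREBP1, the product of Srebf1, mainly on fatty acid genes. The brain makes its own cholesterol, since lipoproteins of the blood hardly cross the blood-brain barrier.

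RNA was sequenced from cells sorted by color out of mouse cortices at 3 embryonic ages, E12.5, E13.5 and E16.5 (days 12, 13 and 16 in the labels), and on the day of birth, P0, with a pool of 2 to 3 cortices for each library. In MADM (mosaic analysis with double markers), rare recombination between cassettes on chromosome 7, here driven by Emx1-Cre in the cells that give rise to cortical excitatory neurons and glia, labels single cells and their progeny green, red or yellow. All groups carried the MADM-7 cassettes and Emx1-Cre, and green cells held both copies of chromosome 7 from the father, so that Dhcr7, which lies on chromosome 7, had 2 paternal copies in every green library. The groups differed in Eed, a core subunit of the Polycomb repressive complex PRC2.

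In control-MADM all cells were Eed+/+. In Eed-MADM the green cells were Eed-/- in a cortex whose other cells were mostly heterozygous, with Eed+/+ red cells and Eed+/- yellow cells among them. In cKO-Eed-MADM Emx1-Cre removed Eed from all cells of the lineage, green, red and yellow alike. The strain is CD1 in the labels and a mixed C57BL/6-CD1 background in the description of the study. The comparison of cKO-Eed-MADM with control-MADM asks what differs after loss of Eed in the whole tissue, Eed-MADM against control-MADM asks the same for sparse mutant cells, and cKO-Eed-MADM against Eed-MADM sets mutant cells in a mutant cortex beside mutant cells in a mostly heterozygous one. The 3 comparisons share libraries. Replicates were pools of animals, and p-values measure the spread between these pools.

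Of 68 green libraries, 55 had at least 1000000 uniquely aligned reads that made up at least 60% of all reads, and only these were used. The study also removed samples for low correlation with replicates, or for reads in the deleted region of Eed that pointed to inefficient recombination. Neither limit was applied here, so the 55 may hold libraries that the study removed. From the youngest age to P0, control-MADM had 5, 2, 3 and 5 of them, Eed-MADM had 8, 2, 5 and 9, and cKO-Eed-MADM had 4 at each age. Reads on genes were 865832 to 2359317 per library at E12.5 and 2784557 to 7249098 at the later time points, and the 29 genes together held 3659 to 28609 reads per library. Eed fell in cKO-Eed-MADM at E16.5 (log2 fold change -1.10, SE 0.31, adjusted p = 0.0314, from 31.4 to 49.5 CPM to 12.9 to 26.5) and at P0 (log2 fold change -1.32, SE 0.25, adjusted p = 0.000378). CPM stands for reads per 1000000 reads on genes after TMM scaling. Levels of Eed in Eed-MADM and at E12.5 and E13.5 are not given here, so its loss in those libraries was not assessed. At E12.5, and at E13.5 in Eed-MADM against control-MADM, no gene passed the test, Eed included. The study reported Eed as depleted in the mutant cells of both paradigms at all ages, in the libraries it kept. Cells at E12.5 went into another collection buffer than cells at later time points, so the youngest age and the buffer cannot be told apart.

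The makeup of the libraries differed with the group. At E16.5 the summed level of 8 projection neuron markers was 9114 to 10229 CPM in control-MADM, 9342 to 11620 in Eed-MADM and 7254 to 8311 in cKO-Eed-MADM, and that of 5 interneuron markers was 11.01 to 30.2, 13.7 to 47.1 and 213 to 428. The sum of 9 astrocyte and oligodendrocyte lineage markers was 30.7 to 35.6, 28.1 to 93.1 and 88.96 to 400.3 CPM at E16.5. At P0 projection neuron markers stood at 4486 to 9017 CPM in control-MADM and 1985 to 5393 in cKO-Eed-MADM, microglia markers (6 genes) at 6.06 to 30.5 and 131 to 311, and meningeal markers (5 genes) at 8.38 to 15.4 and 88.9 to 225. At E16.5 no library of control-MADM held a read of the microglia marker Csf1r, the meningeal marker Lum or the oligodendrocyte marker Sox10, and in cKO-Eed-MADM none of these was at 0 in all libraries. The part of these shifts in the results on lipid genes was not tested. In such bulk libraries fewer cells of a type and less RNA per cell cannot be told apart.

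Sequence before the RefSeq start is shown for 5 sterol enzymes that differed in at least 1 comparison and were chosen by the motifs in it. Motifs of SREBPs and of NF-Y and Sp1, factors that act beside SREBPs on sterol genes, were searched. Promoter windows from RefSeq (GRCm38.p6, 250 bases before to 50 after the start) were matched by symbol for 23 of the 29 genes. On both strands, the letters TCACNCCAC of the sterol regulatory element, which SREBPs bind, stood in 1 of the 23 (4.35%) and in 1.44% of all 27025 genes with a window. CCAAT, bound by NF-Y, stood in 19 of 23 (82.6%, against 41.1% of all genes), and the GC box GGGCGG, bound by Sp1, also in 19 of 23 (82.6%, against 38.2%). These shares are descriptions of a list chosen by function. The stretches below hold the 170 bases before the RefSeq start on the strand of the gene, in 5′ to 3′ direction, and capitals mark a match to the 3 motifs on either strand. By GENCODE M21, which gave the other coordinates, Msmo1 reaches to chr8:64733792, so that its stretch lies inside the gene. Those of Cyp51 and Lss lie partly inside. Cyp51 is at chr5:4104698-4104867 (minus strand), Msmo1 at chr8:64733579-64733748 (minus), Mvd at chr8:122443423-122443592 (minus), Lss at chr10:76531435-76531604 (plus) and Hmgcs1 at chr13:119690181-119690350 (plus).
Cyp51: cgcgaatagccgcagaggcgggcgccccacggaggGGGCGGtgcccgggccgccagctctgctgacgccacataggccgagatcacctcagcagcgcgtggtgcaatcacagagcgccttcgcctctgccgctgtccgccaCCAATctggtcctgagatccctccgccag
Msmo1: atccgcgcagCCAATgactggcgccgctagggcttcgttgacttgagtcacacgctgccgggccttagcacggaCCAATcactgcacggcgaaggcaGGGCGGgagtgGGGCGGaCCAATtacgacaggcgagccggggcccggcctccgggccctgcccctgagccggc
Mvd: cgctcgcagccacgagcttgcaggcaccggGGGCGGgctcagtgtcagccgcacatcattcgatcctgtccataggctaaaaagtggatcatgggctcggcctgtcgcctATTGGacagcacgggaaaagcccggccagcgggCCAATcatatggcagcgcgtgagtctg
Lss: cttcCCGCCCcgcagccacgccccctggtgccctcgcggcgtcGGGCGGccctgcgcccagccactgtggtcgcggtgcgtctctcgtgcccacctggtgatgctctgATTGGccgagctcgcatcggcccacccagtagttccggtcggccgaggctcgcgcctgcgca
Hmgcs1: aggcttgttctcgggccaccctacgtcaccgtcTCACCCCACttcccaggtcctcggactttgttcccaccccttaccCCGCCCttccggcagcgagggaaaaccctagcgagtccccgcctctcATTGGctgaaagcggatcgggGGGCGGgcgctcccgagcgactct

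Of the 5 stretches that of Hmgcs1 held the sterol regulatory element, and those of Cyp51, Msmo1, Mvd and Lss held no match to its letters. In Hmgcs1 it began 137 bases before the start. Msmo1 held 3 CCAAT boxes in the stretch shown, Mvd held 2, and Cyp51, Lss and Hmgcs1 each held 1. Each of the 5 stretches held at least 1 CCAAT box and 1 GC box because it was chosen for holding both. The windows of Acaca and Elovl6, which also differed between groups, held none of the 3 motifs, and that of Acat2 held only a GC box.

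In control-MADM the genes covered a wide range of levels. Per kilobase of exon at E16.5 (n = 3), the desaturase gene Scd2 stood highest at 98.1 ± 6.29 CPM per kb (SD), next to Acat2, which encodes a cytosolic thiolase, at 96.6 ± 7.49, and these 2 did not differ beyond their spread. Fdft1 (squalene synthase) followed at 81.2 ± 7.04, Acly (ATP citrate lyase, the source of cytosolic acetyl-CoA) at 66.6 ± 8.65 and Mvd (mevalonate diphosphate decarboxylase) at 61.7 ± 12.2. At the other end stood Scd1 at 1.61 ± 0.867, Acaca (acetyl-CoA carboxylase) at 1.35 ± 0.219 and Idi1 (isopentenyl diphosphate isomerase) at 0.828 ± 0.357. Acat2 was the highest of the 29 at E12.5 (209 ± 20.3, n = 5), E13.5 (123 ± 13.54, n = 2) and P0 (98.1 ± 21.4, n = 5). Only uniquely aligned reads were counted, and of the 50-base stretches of the transcripts 86.4% in Fdps, 52.6% in Acaca, 45.9% in Acat2, 30.7% in Fdft1 and 30.5% in Idi1 also occur elsewhere among the transcripts, so the levels of these genes are uncertain.

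**Figure D1:**
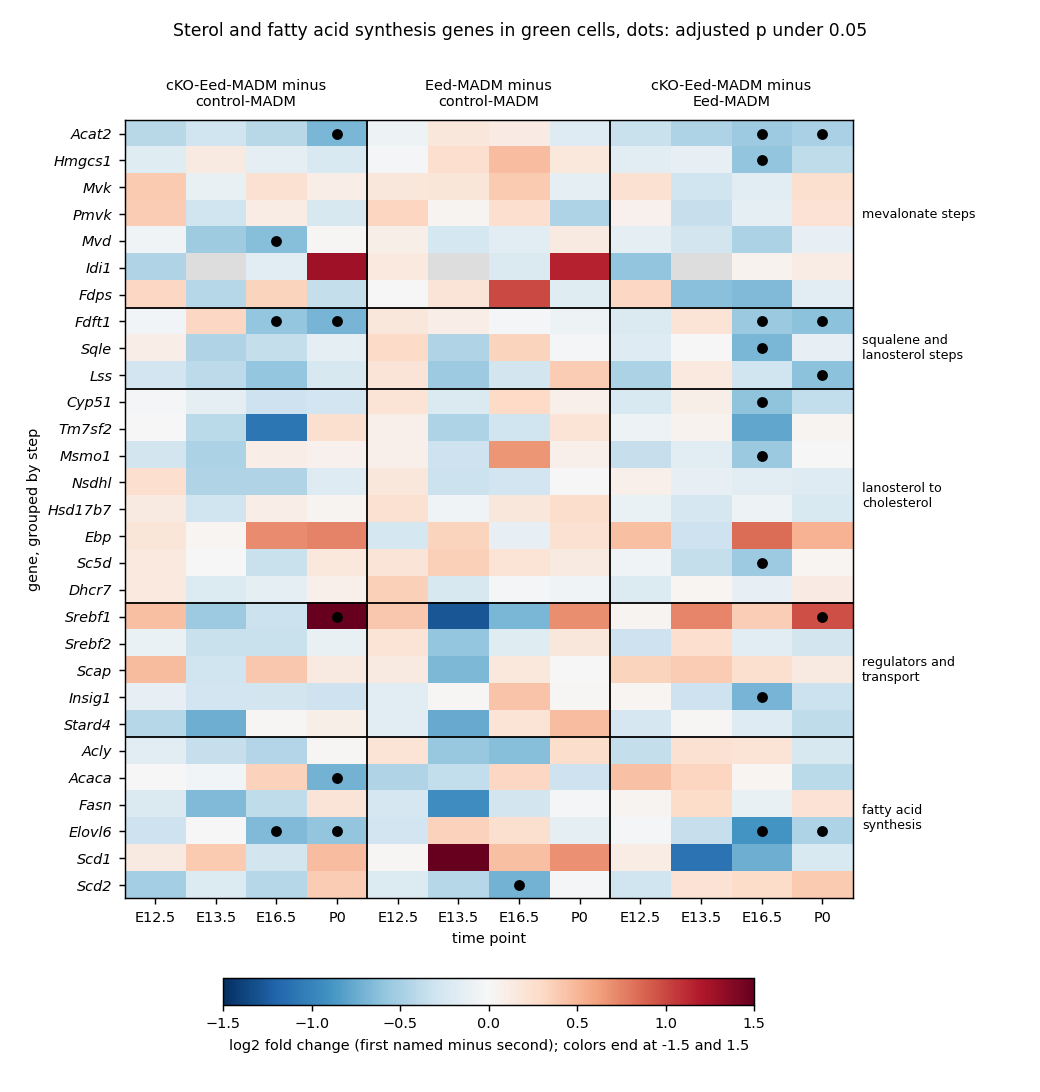
Log2 fold changes of the 29 genes (rows, ordered by step of the pathway) in the 3 genotype comparisons at 4 time points (columns). Color gives the log2 fold change, black dots mark an adjusted p under 0.05 (edgeR quasi-likelihood test) and grey a gene that was not tested. Dots stand at E16.5 and P0 alone, and the column with the largest number of them is cKO-Eed-MADM against Eed-MADM at E16.5 (9 genes).

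At E12.5 and E13.5 no difference in the 29 genes passed the test. By edgeR's quasi-likelihood test with Benjamini-Hochberg adjustment 0 of 29 genes were called at E12.5 in each of the 3 comparisons, where 0.0% of the 18100 genes tested were called in each. At an unadjusted p under 0.05 the number was 1 (Scd2, cKO-Eed-MADM against control-MADM), 0 for Eed-MADM against control-MADM and 0 for the remaining comparison. DESeq2 called 0 in each. Here and below, counts at an unadjusted p under 0.05 or by DESeq2 are given without the share of all genes counted likewise. They are not comparable with the shares of edgeR calls. At E13.5, where Idi1 was too low to be tested, 0 of 28 were called in each comparison, against 0.0372% of 13448 genes for cKO-Eed-MADM against control-MADM, 0.0% for Eed-MADM against control-MADM and 0.0223% for cKO-Eed-MADM against Eed-MADM. There the numbers at an unadjusted p under 0.05 were 0, 3 and 0, and DESeq2 called 0. At E13.5 the median log2 fold change of the 28 genes was -0.30 in cKO-Eed-MADM against control-MADM, against 0.05 over all genes tested, and 23 of the 28 were negative (82.1%, against 46.7% of all genes). It was -0.25 in Eed-MADM against control-MADM (17 of 28 negative, 0.01 over all genes) and -0.06 in cKO-Eed-MADM against Eed-MADM (14 of 28, 0.03 over all genes). At E12.5 the medians over the 29 genes were -0.03, 0.14 and -0.09 in these 3 comparisons. With 2 control-MADM libraries at E13.5, differences of moderate size were not detectable. The study, by DESeq2 and after removal of further samples, reported more changed genes at E13.5 in each of the 3 comparisons than edgeR called here. It did so at E12.5 as well for cKO-Eed-MADM against Eed-MADM. The absence of calls among the 29 genes at these ages therefore does not show that they were unchanged.

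The values at these ages show how far the libraries spread. Scd2 at E12.5 ran from 578 to 1171 CPM in control-MADM, from 658 to 1054 in Eed-MADM and from 556 to 781 in cKO-Eed-MADM. Fdft1, 1 of the 5 genes with a positive value in cKO-Eed-MADM against control-MADM at E13.5, read 223 and 215 CPM in the control-MADM libraries, 242 and 229 in Eed-MADM and 226, 258, 318 and 286 in cKO-Eed-MADM, so that every mutant library was above the controls (0.31, adjusted p = 0.764 for cKO-Eed-MADM against control-MADM). Srebf1 at E13.5 read 120.1 and 107 CPM in control-MADM and 18.4 and 74.9 in Eed-MADM, apart in these few libraries but not past the test (-1.28, adjusted p = 0.793).

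At E16.5 Fdft1, Elovl6 and Mvd were lower in cKO-Eed-MADM than in control-MADM, with log2 fold changes from -0.66 to -0.58. These 3 of 29 genes (10.3%) were called, all lower, in a comparison in which 8.58% of 13359 genes were called, 6.16% as higher and 2.42% as lower. The median log2 fold change of the 29 was -0.31, against 0.00 over all genes tested, and 20 of the 29 were negative. By step, 1 of 7 mevalonate genes fell, 1 of 3 squalene and lanosterol genes, 0 of 8 later sterol genes, 0 of 5 regulators and 1 of 6 fatty acid genes.

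Fdft1 makes squalene, the step that commits isoprenoids to sterols (chr14:63145150-63179578, minus strand). It read 317, 337 and 376 CPM in the 3 control-MADM libraries and 258, 241, 194 and 223 in the 4 cKO-Eed-MADM libraries. The groups did not overlap, and Fdft1 fell by 33.2% (log2 fold change -0.58, SE 0.13, adjusted p = 0.0063). Of its exonic bases 18.3% overlap Ctsb, a lysosomal protease gene on the other strand, and reads in such overlaps are not assigned to either gene. Elovl6, which lengthens palmitate (chr3:129532355-129638495), read 92.9, 99.9 and 71.9 CPM in control-MADM and 68.3, 48.4, 50.1 and 55.9 in cKO-Eed-MADM (log2 fold change -0.66, SE 0.18, adjusted p = 0.0254). Mvd read 105, 141 and 98.5 CPM and 71.8, 60.4, 85.6 and 76.7 (log2 fold change -0.64, SE 0.19, adjusted p = 0.0446), and neither Elovl6 nor Mvd overlapped between the groups.

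The calls of Elovl6 and Mvd were near the threshold. Elovl6 lost its call in 5 of the 7 fits that left out 1 library, and Mvd in 6 of 7, with adjusted p-values up to 0.134 and 0.266, each without control-MADM replicate 2. The log2 fold changes in these fits ran from -0.80 to -0.57 for Elovl6 and from -0.74 to -0.47 for Mvd. With DESeq2 size factors Mvd had an adjusted p of 0.0513, and with only the 2 groups compared Elovl6 had an adjusted p of 0.0512, both by edgeR. Only 1 of the 29 genes, Fdft1, was called without control-MADM replicate 1 or 2 or without cKO-Eed-MADM replicate 2 or 4. Just outside the threshold stood Tm7sf2, a sterol reductase (log2 fold change -1.08, SE 0.34, adjusted p = 0.054), Acat2 (-0.42, adjusted p = 0.0779), Acly (-0.44, adjusted p = 0.0824) and Scd2 (-0.43, adjusted p = 0.0926).

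In sparse mutant cells the picture at E16.5 was another: of the 29 genes only Scd2, a stearoyl-CoA desaturase that makes monounsaturated fatty acids, passed the test of edgeR in Eed-MADM against control-MADM (3.45%, with 0.255% of 13359 genes called, 0.24% as higher and 0.015% as lower). DESeq2 called 4 of the 29 in this comparison, 2 higher and 2 lower. The share of all genes that DESeq2 called is not given, so this count cannot be set beside the shares of edgeR. Scd2 read 526.4, 507 and 574 CPM in control-MADM and 352, 335, 343, 323 and 289 in Eed-MADM, groups that did not overlap (log2 fold change -0.71, SE 0.14, adjusted p = 0.0431). In cKO-Eed-MADM it read 519, 326, 428 and 317, a range that takes in values of both other groups. The call of Scd2 was lost in 7 of the 8 fits without 1 library, with adjusted p-values up to 0.209 without control-MADM replicate 3, and the median log2 fold change of the 29 genes was 0.15 against 0.01 over all genes.

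Msmo1, Hmgcs1, Cyp51 and Fdps were above control-MADM in every Eed-MADM library without passing the test. The share of all genes that stand apart in this way in so few libraries was not computed, so no trend is read from them. Msmo1, the C4 methyl sterol oxidase, read 91.5, 87.4 and 82.1 CPM in control-MADM and 116, 145, 139, 160.1 and 127 in Eed-MADM (log2 fold change 0.66, SE 0.16, adjusted p = 0.0996). Hmgcs1, which makes HMG-CoA, read 222, 222 and 225 and 273, 282, 285, 379 and 312 CPM (0.46, adjusted p = 0.155), Cyp51 (lanosterol demethylase) stood apart likewise (0.30, adjusted p = 0.433), and Fdps, farnesyl pyrophosphate synthase, read 16.3, 17.6 and 14.8 and 21.3, 31.98, 35.3, 35.8 and 37.1 (0.99, adjusted p = 0.195). Acly was below control-MADM in every Eed-MADM library, at 242, 189, 224, 185 and 286 CPM against 326, 404 and 324 (-0.64, adjusted p = 0.0674).

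The most calls were made between the 2 kinds of mutant cells. In cKO-Eed-MADM against Eed-MADM at E16.5, 9 of 29 genes (31.0%) were called, all of them lower in cKO-Eed-MADM, where 7.04% of 13359 genes were called, 4.45% as higher and 2.58% as lower. They were 2 of 7 mevalonate genes (Acat2 and Hmgcs1), 2 of 3 squalene and lanosterol genes (Fdft1 and Sqle), 3 of 8 later sterol genes (Cyp51, Msmo1 and Sc5d), 1 of 5 regulators (Insig1) and 1 of 6 fatty acid genes (Elovl6). In each of the 9 the 4 cKO-Eed-MADM libraries lay below the 5 Eed-MADM libraries. The 9 were picked by the test on these same libraries, so their separation adds no support to the calls. The share of all genes that stand apart in this way was not computed. The median log2 fold change of the 29 was -0.19, against 0.01 over all genes, with 22 of 29 negative.

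Elovl6 differed most, with 113, 106, 109, 84.7 and 108 CPM in Eed-MADM and the cKO-Eed-MADM values given above (log2 fold change -0.90, SE 0.16, adjusted p = 0.00112). Sqle, squalene epoxidase and the first oxygen-dependent enzyme of the pathway, read 241, 275, 328, 290.1 and 332 CPM in Eed-MADM and 182, 203, 185 and 159 in cKO-Eed-MADM (log2 fold change -0.69, SE 0.12, adjusted p = 0.00124). Control-MADM stood between them at 215, 259 and 226, a range that touched the lower end of Eed-MADM but not cKO-Eed-MADM. Insig1, the sterol sensor that is itself an SREBP target, read 100.5, 123, 148, 133 and 137 CPM and 84.7, 77.1, 76.8 and 77.0 (log2 fold change -0.70, SE 0.14, adjusted p = 0.00282), with control-MADM at 94.3, 90.1 and 103.

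Cyp51, whose promoter is shown above, read 245, 221, 239, 252 and 286 CPM in Eed-MADM and 181, 168, 161 and 141 in cKO-Eed-MADM (log2 fold change -0.61, SE 0.12, adjusted p = 0.00276). Hmgcs1, with the sterol regulatory element, was at 201, 200.4, 191 and 220.1 CPM in cKO-Eed-MADM, below each Eed-MADM value (log2 fold change -0.59, SE 0.12, adjusted p = 0.0026). Against control-MADM the same libraries of Hmgcs1 did not pass the test (-0.13, adjusted p = 0.641), nor did those of Cyp51 (-0.31, adjusted p = 0.198), Sqle (-0.36, adjusted p = 0.14) or Insig1 (-0.28, adjusted p = 0.349). Both comparisons use the same 4 cKO-Eed-MADM libraries.

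Fdft1 read 328, 329, 308, 329 and 387 CPM in Eed-MADM, at the level of control-MADM, and differed from cKO-Eed-MADM as it did from control-MADM (log2 fold change -0.55, SE 0.12, adjusted p = 0.00426). Acat2 read 208, 288, 296, 280.0 and 264 CPM in Eed-MADM and 188, 197, 155 and 195 in cKO-Eed-MADM (log2 fold change -0.54, SE 0.13, adjusted p = 0.0103), and the call was lost without cKO-Eed-MADM replicate 3 (adjusted p = 0.0503). Tcp1, a chaperonin gene that shares sequence with Acat2, read 274 to 306 CPM in cKO-Eed-MADM against 357 to 400.2 in control-MADM, and its part in the Acat2 counts was not tested. Msmo1 (115, 93.3, 73.8 and 92.9 CPM in cKO-Eed-MADM, log2 fold change -0.55, SE 0.15, adjusted p = 0.026) and Sc5d, the sterol C5 desaturase (120.1, 113, 142, 136 and 150.4 CPM against 69.5, 84.4, 111 and 98.8, log2 fold change -0.54, SE 0.16, adjusted p = 0.0451), stood near the threshold, and their calls were lost without 1 library in 4 and 6 of 9 fits.

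**Figure D2:**
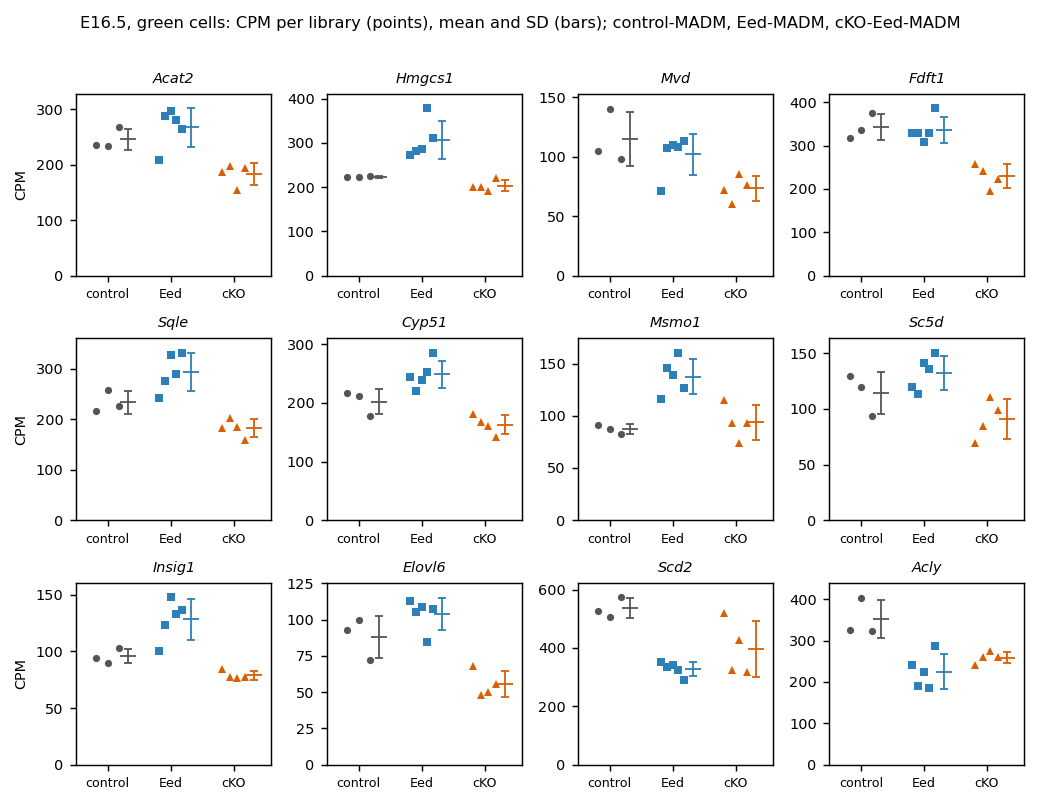
Levels (CPM, linear axis from 0) of 12 genes in each green library at E16.5, by group, with points for libraries and bars for the mean ± SD. Elovl6, Sqle, Cyp51, Insig1 and Hmgcs1 sit lower in all 4 cKO-Eed-MADM libraries than in the 5 Eed-MADM libraries, and Scd2 is lower in Eed-MADM than in the 3 control-MADM libraries.

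Not every sterol gene was lower in cKO-Eed-MADM at E16.5. Ebp, which moves the double bond of the sterol ring, read 18.7, 16.3 and 22.0 CPM in control-MADM, 22.4, 20.8, 11.04, 18.9 and 14.6 in Eed-MADM and 27.3, 29.7, 35.004 and 32.8 in cKO-Eed-MADM. All 4 cKO-Eed-MADM libraries were above the other 8, and the difference from Eed-MADM missed the threshold (log2 fold change 0.83, SE 0.26, adjusted p = 0.0558). Srebf2, Scap and Srebf1 showed no difference between groups that passed the test at E16.5. Srebf2 read 304, 289.5 and 267 CPM in control-MADM, 284, 167, 262, 273 and 276 in Eed-MADM and 284, 203, 225 and 195 in cKO-Eed-MADM (-0.34, adjusted p = 0.287 for cKO-Eed-MADM against control-MADM). Scap ran from 64.8 to 85.7, 62.4 to 112 and 83.7 to 115 CPM in the same order. Srebf1 overlapped between all groups, at 68.4, 70.3 and 50.3, then 66.5, 22.2, 45.3, 40.3 and 21.3, then 66.7, 62.6, 42.9 and 29.2 CPM.

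At P0, 4 synthesis genes were lower in cKO-Eed-MADM than in control-MADM (Fdft1, Acat2, Acaca and Elovl6) and the regulator Srebf1 was higher. The 5 of 29 genes called (17.2%) compare with 24.2% of the 14161 genes tested (14.2% higher and 10.0% lower), so the share is below that of all genes. The median log2 fold change of the 29 was 0.02, against -0.01 over all genes, and 13 of 29 were negative. None of the 8 genes between lanosterol and cholesterol was called.

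Fdft1 read 174, 255, 167, 187 and 216 CPM in control-MADM, 167 to 246 with a median of 179 in Eed-MADM (n = 9) and 143, 111, 116 and 125 in cKO-Eed-MADM. The 4 cKO-Eed-MADM libraries lay below all others (log2 fold change -0.69, SE 0.15, adjusted p = 0.00123 against control-MADM, log2 fold change -0.61, SE 0.13, adjusted p = 0.00196 against Eed-MADM). Ctsb on the other strand moved the opposite way, with 438 to 528 CPM in control-MADM and 504 to 819 in cKO-Eed-MADM. Fdft1 and Elovl6 were called lower in cKO-Eed-MADM against both other groups at both ages, and of these Fdft1 kept each of its 4 calls in every fit that left out 1 library of a group of 2 to 5.

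Acaca, whose product makes malonyl-CoA and sets the pace of fatty acid synthesis (chr11:84129672-84401651), read 49.9, 46.9, 43.4, 63.8 and 44.6 CPM in control-MADM and 29.3, 27.9, 30.4 and 33.6 in cKO-Eed-MADM. The groups did not overlap (log2 fold change -0.71, SE 0.18, adjusted p = 0.00535), and Eed-MADM ran from 33.6 to 52.2 with a median of 38.8. Gm5182, which shares sequence with Acaca, stayed at 0.62 CPM or less. Elovl6 read 80.4, 82.5, 81.8, 101 and 104 CPM in control-MADM and 53.4, 68.4, 52.6 and 65.1 in cKO-Eed-MADM, again without overlap (log2 fold change -0.59, SE 0.16, adjusted p = 0.00823). Acat2 read 268, 244, 184, 329.7 and 223 and 134, 197, 129 and 161 CPM (log2 fold change -0.69, SE 0.16, adjusted p = 0.00243), where the second cKO-Eed-MADM library lay above the lowest control.

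Srebf1 (chr11:60199089-60222581, minus strand) read 25.8, 70.7, 53.0, 56.2 and 31.0 CPM in control-MADM, 47.6 to 119 with a median of 68.4 in Eed-MADM and 188, 50.6, 159 and 201 in cKO-Eed-MADM. Of the cKO-Eed-MADM libraries, 3 were above all libraries of the other groups and replicate 2, at 50.6, lay among them. The difference from control-MADM passed the test (log2 fold change 1.67, SE 0.35, adjusted p = 0.00133) and was 1.95 without replicate 2 (adjusted p = 4.9e-05). The difference from Eed-MADM passed it too (log2 fold change 0.97, SE 0.30, adjusted p = 0.0252), but not without cKO-Eed-MADM replicate 1, 3 or 4 (adjusted p = 0.0865, 0.0593 and 0.123) or without a filter on low counts (adjusted p = 0.106).

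The same cKO-Eed-MADM library stood apart in other genes of this set. Srebf2 read 259.7, 70.6, 275 and 226 CPM in cKO-Eed-MADM against 245, 293, 194, 167 and 229 in control-MADM (-0.11, adjusted p = 0.792), and the log2 difference was 0.17 without replicate 2. Scd2 read 583, 294, 566 and 584 CPM against 341, 489.5, 295, 448 and 377 (0.38, adjusted p = 0.149), so that 3 libraries were above all controls and 1 at their lower end. Without replicate 2, 6 of the 29 genes were called against control-MADM (2 higher and 4 lower), and the share of all genes called in that fit is not given. Scap (89.6 to 121 CPM against 79.4 to 115) and Insig1 (97.1 to 131 against 87.2 to 174) overlapped between the groups and did not pass the test.

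In Eed-MADM against control-MADM at P0, edgeR called 0 of 29 genes (1.75% of 14161 genes were called) and DESeq2 called 0. At an unadjusted p under 0.05 the number was 7. The share of all genes at that limit is not given, so the 7 cannot be set beside the 1.75%. Nearest to the threshold stood Pmvk, phosphomevalonate kinase (log2 fold change -0.46, SE 0.15, adjusted p = 0.116). Scd2, which differed at E16.5, read 272 to 492 with a median of 404 CPM in Eed-MADM at P0 (-0.02, adjusted p = 0.971). In cKO-Eed-MADM against Eed-MADM, 5 of 29 genes (17.2%) were called where 19.5% of 14161 genes were (11.2% higher and 8.26% lower): Fdft1, Acat2 (-0.49, adjusted p = 0.0167), Elovl6 (-0.46, adjusted p = 0.0257) and Lss fell, and Srebf1 rose. Acat2 lost this call without cKO-Eed-MADM replicate 1 or 3 (adjusted p = 0.0665 and 0.0791), and so did Elovl6 (adjusted p = 0.0872 and 0.0949). Lss, lanosterol synthase, read 61.4 to 103 with a median of 76.0 CPM in Eed-MADM and 71.9, 29.0, 55.7 and 52.4 in cKO-Eed-MADM (log2 fold change -0.62, SE 0.19, adjusted p = 0.0218). The lowest of these was replicate 2, and the call was lost without it (-0.43, adjusted p = 0.086) and without replicate 4 (-0.61, adjusted p = 0.0609). Cyp51 (-0.37, adjusted p = 0.0658) and Hmgcs1 (-0.39, adjusted p = 0.0859), called at E16.5, did not pass the test at P0.

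**Figure D3:**
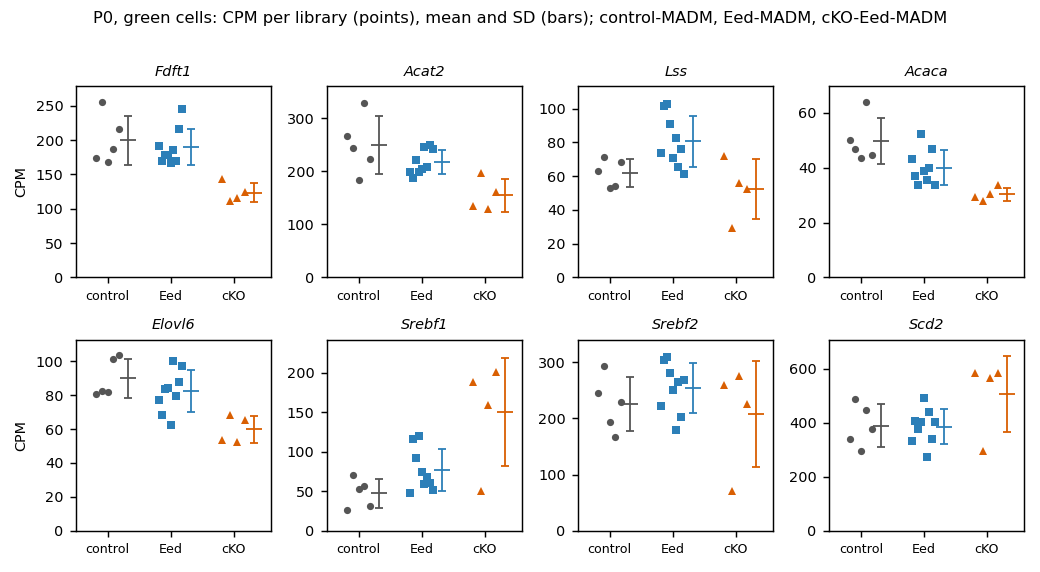
Levels (CPM, linear axis from 0) of 8 genes in each green library at P0, by group, with points for libraries and bars for the mean ± SD. Fdft1 is lower in all 4 cKO-Eed-MADM libraries than in the other groups, and Srebf1 is higher in 3 of 4, with the remaining library at 50.6 CPM.

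Whether the effect of the tissue-wide loss of Eed differed between E16.5 and P0 was tested as a difference of differences over all green libraries from E13.5 to P0. In edgeR 0 of 29 genes passed for cKO-Eed-MADM (1.17% of 13926 genes did), with 4 at an unadjusted p under 0.05 and 1 called by DESeq2. Srebf1 came nearest: the difference from control-MADM was higher at P0 than at E16.5 by 2.01, SE 0.58, adjusted p = 0.0813 (log2 scale). Tm7sf2 followed (1.33, SE 0.43, adjusted p = 0.134), and Scd2 (0.83, SE 0.28, adjusted p = 0.154). For Fdft1 the difference of differences was -0.10, SE 0.21, adjusted p = 0.918. For Eed-MADM 0 of 29 passed (0.0215% of 13926 genes) and DESeq2 called 0. The number at an unadjusted p under 0.05 was 7, again without the share of all genes at that limit.

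The genes also moved with age. Levels in this comparison are CPM on 1 scale over E13.5, E16.5 and P0. In control-MADM 3 of 29 genes were called between E13.5 and E16.5 (15.8% of 13926 genes) and 5 between E16.5 and P0 (14.1%). Fdft1 was 223 ± 3.60 CPM at E13.5 (n = 2), 351 ± 30.2 at E16.5 (n = 3) and 195 ± 36.4 at P0 (n = 5). It rose between the embryonic ages (0.65, adjusted p = 0.0143) and fell to P0 (-0.85, adjusted p = 7.19e-05). It fell to P0 in Eed-MADM as well (-0.90, adjusted p = 1.22e-07) and in cKO-Eed-MADM (-0.94, adjusted p = 1.15e-05), where it was 278 ± 41.3, 233 ± 27.4 and 121 ± 13.9 CPM.

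In control-MADM Stard4, a carrier of sterols between membranes, fell between E13.5 and E16.5 from 68.2 ± 11.7 to 29.3 ± 5.62 CPM (-1.22, adjusted p = 0.0143), and Msmo1 fell from 150.4 ± 21.4 to 89.01 ± 5.08 (-0.76, adjusted p = 0.0426). Between E16.5 and P0 Msmo1 rose again to 166 ± 31.1 (0.90, adjusted p = 0.00409). Acly fell from 359 ± 44.3 to 137 ± 47.4 CPM (-1.39, adjusted p = 0.000522). Fdps rose from 16.6 ± 1.41 to 49.1 ± 17.6 (1.56, adjusted p = 0.00176) and Acaca from 23.6 ± 3.97 to 48.5 ± 7.73 (1.04, adjusted p = 0.0176). With 2 libraries at E13.5 the number of calls between the embryonic ages ranged from 0 to 3 when 1 library was left out, and none of the 29 was called without control-MADM E16.5 replicate 3. Between E16.5 and P0 only Acaca of the 5 genes lost its call, in 2 of 8 such fits.

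In Eed-MADM, 4 of 29 genes rose between E13.5 and E16.5 (19.3% of 13926 genes were called, and 9.99% as higher) and 6 were called between E16.5 and P0 (21.0%). The 4 were Cyp51, from 164 ± 16.4 to 254 ± 24.6 CPM (0.63, adjusted p = 0.0147), Sqle (0.63, adjusted p = 0.0235), Hmgcs1 (0.63, adjusted p = 0.0268) and Fdft1 (0.50, adjusted p = 0.0374), and none of the 29 was called without Eed-MADM E13.5 replicate 2. To P0 Cyp51 (-0.60, adjusted p = 0.000255), Sqle (-0.57, adjusted p = 0.00121), Fdft1 and Acat2 (-0.37, adjusted p = 0.0296) fell. Scd1, the lesser desaturase gene in these cells, rose from 10.9 ± 2.53 to 21.9 ± 7.17 CPM (1.01, adjusted p = 0.024), and Srebf1 rose from 40.0 ± 19.0 to 74.6 ± 26.1 (0.90, adjusted p = 0.0488). Of the 5 fits without 1 E16.5 library, the call was lost in 4 for Srebf1, 3 for Scd1 and 4 for Acat2, and in none for Cyp51, Sqle and Fdft1.

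In cKO-Eed-MADM only Acat2 was called between E13.5 and E16.5, and it fell from 259.5 ± 36.4 to 187 ± 19.3 CPM (-0.48, adjusted p = 0.0318, with 17.5% of 13926 genes called). Between E16.5 and P0, 6 of 29 were called (17.7% of all genes). Srebf1 rose from 51.2 ± 17.7 to 147 ± 67.7 CPM (1.53, adjusted p = 0.0077), Scd1 from 6.53 ± 3.63 to 18.8 ± 7.57 (1.53, adjusted p = 0.00752), Msmo1 from 95.1 ± 16.9 to 175 ± 4.66 (0.88, adjusted p = 0.00218) and Fasn, fatty acid synthase, from 183 ± 34.6 to 281 ± 22.3 (0.61, adjusted p = 0.0392). Acly fell with Fdft1 (-0.92, adjusted p = 0.0173), a call that was lost without P0 replicate 2 (adjusted p = 0.0735). Of the 8 fits without 1 library, the call of Fasn was lost in 5 and that of Acat2 between the embryonic ages also in 5, while Srebf1, Scd1, Msmo1 and Fdft1 kept theirs in all 8.

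**Figure D4:**
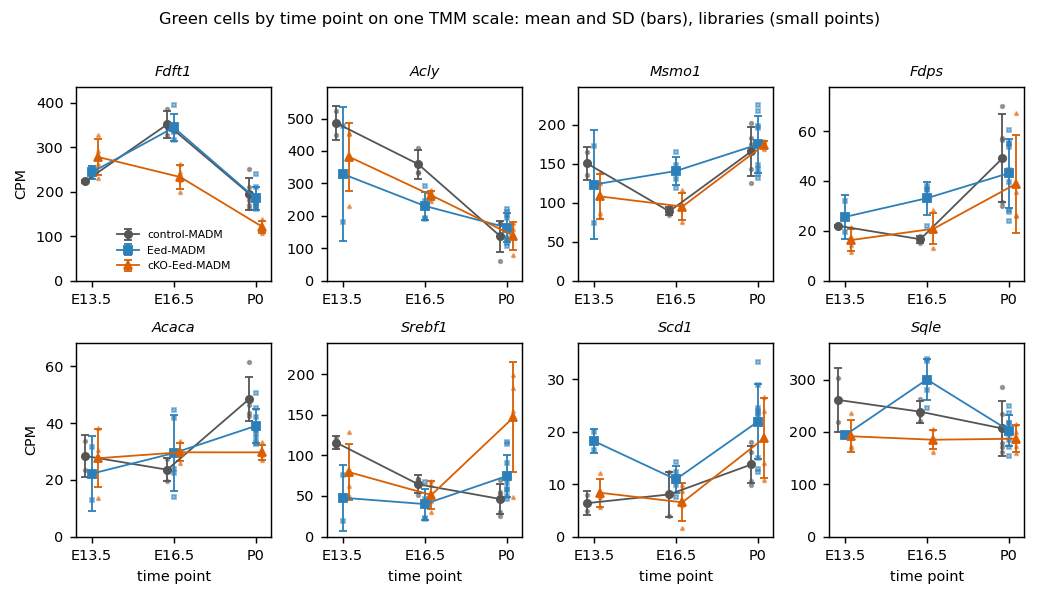
Levels (CPM on 1 scale over the 3 time points, linear axis from 0) of 8 genes at E13.5, E16.5 and P0 in the green libraries of each group, with points for libraries and lines through the means with bars of ± SD. Fdft1 falls between E16.5 and P0 in all 3 groups, while Srebf1 ends at 147 ± 67.7 CPM in cKO-Eed-MADM and at 46.3 ± 18.4 in control-MADM.

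Red and yellow cells gave a look at the same genes in libraries outside the green set. No source used here says whether these red and yellow cells came from other pools of animals than the green ones. Their values are therefore not taken as an independent replication. In cKO-Eed-MADM red and yellow cells lack Eed as well, and in control-MADM they keep it. At E16.5, with 2 red libraries in each group, 1 of 28 genes was called (3.57%, against 8.11% of 13342 genes). Acat2 fell from 251 and 271 CPM in control-MADM to 196 and 168 in cKO-Eed-MADM (-0.52, SE 0.15, adjusted p = 0.0494). Fdft1 read 309 and 317 and 273 and 204 CPM (-0.39, SE 0.16, adjusted p = 0.176), and Elovl6 read 112 and 104 and 58.5 and 83.9 (-0.60, SE 0.21, adjusted p = 0.105). Both were lower in the 2 mutant libraries than in the 2 controls without passing the test, as was Insig1 (-0.51, SE 0.18, adjusted p = 0.105).

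At E13.5 (2 control-MADM and 4 cKO-Eed-MADM libraries) edgeR called 0 of 29 genes, where it called 1.9% of 13187 genes. Of the 29, 5 had an unadjusted p under 0.05 and DESeq2 called 2, without the share of all genes counted likewise. At P0 (4 and 3 libraries) 0 of the 29 had an unadjusted p under 0.05 and DESeq2 called 0. The edgeR fit at P0 called 0 of 29 and 0.00715% of 13985 genes. The spread in this fit was wide (median biological coefficient of variation 0.762). Without 2 libraries of under 14000 genes with a read, a choice made after the data were seen, it was 0.339, and 5 of the 29 had an unadjusted p under 0.05, again with 0 called. They were Mvk (0.92, adjusted p = 0.108), Fdft1 (-0.65, adjusted p = 0.177), Acat2 (-0.58, adjusted p = 0.186), Tm7sf2 (-0.99985, adjusted p = 0.211) and Fasn (-0.58, adjusted p = 0.218). Fdft1 at P0 ran from 168 to 211 CPM in control-MADM and from 112 to 149 in cKO-Eed-MADM, groups that did not overlap (-0.61, SE 0.27, adjusted p = 0.76). Acat2 was next (-0.76, SE 0.35, adjusted p = 0.777).

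Other genes of lipid synthesis and uptake gave few calls. The list held 15 genes, among them Insig2 (an anchor of the SREBP complex like INSIG1), Mbtps1 (the Golgi protease that cuts SREBPs) and the fatty acid desaturases Fads1 and Fads2. In cKO-Eed-MADM against control-MADM, edgeR called 0 of 13 tested at E16.5 (against 8.58% of all genes called) and 1 of 13 at P0 (7.69%, against 24.2% of all genes). At E16.5, 2 of the 13 had an unadjusted p under 0.05, without the share of all genes at that limit. At P0 Me1, malic enzyme and a source of NADPH, rose from 22.1, 16.8, 7.71, 18.0 and 14.6 to 34.96, 24.2, 20.0 and 33.8 CPM (log2 fold change 0.84, SE 0.26, adjusted p = 0.0195). The groups overlapped. Mbtps1 fell against Eed-MADM at P0, from 111 to 149 with a median of 137 CPM to 121, 90.7, 87.1 and 95.9 (log2 fold change -0.43, SE 0.13, adjusted p = 0.0204).

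Several genes of sterol export and its liver X receptor control were higher in cKO-Eed-MADM. Liver X receptors sense oxidised sterols and turn on exporters and lipoprotein genes. Of 9 such genes tested, 2 rose against control-MADM at E16.5, where 6.16% of all genes rose, and 6 at P0, where 14.2% did, and 0 fell at either age. Their median log2 fold change was 0.04 at E16.5 and 0.88 at P0, against 0.00 and -0.01 over all genes. The list was chosen with earlier results of these data known. For the sparse mutant cells of Eed-MADM against control-MADM, edgeR called 0 of 9 at E16.5 (0.255% of all genes called) and 0 of 9 at P0 (1.75%). At an unadjusted p under 0.05 the numbers were 1 and 2, without the share of all genes at that limit.

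Abcg1, an exporter of sterol from the cell, read 17.9, 22.2 and 19.3 CPM in control-MADM at E16.5, 25.3, 39.8, 27.8, 41.2 and 43.5 in Eed-MADM and 54.4, 48.9, 58.9 and 57.3 in cKO-Eed-MADM. The 3 groups did not overlap, and the rise from control-MADM to cKO-Eed-MADM passed the test (log2 fold change 1.47, SE 0.25, adjusted p = 0.00061). At P0 it read 35.5, 13.6, 19.3, 36.8 and 13.46 CPM in control-MADM and 51.5, 65.8, 61.2 and 67.2 in cKO-Eed-MADM (log2 fold change 1.37, SE 0.26, adjusted p = 0.000385). Apoe, the main lipoprotein of the brain and a product chiefly of glia, read 51.8, 35.8 and 23.9 CPM in control-MADM and 127, 395, 212 and 591 in cKO-Eed-MADM at E16.5 (log2 fold change 3.14, SE 0.72, adjusted p = 0.0197). At P0 the values were 511, 1346, 858, 1986 and 903 and 4241, 2985, 4049 and 6713 (log2 fold change 2.00, SE 0.35, adjusted p = 0.000289). The sum of glial lineage markers also differed between the groups, at the values given above for E16.5 and at 910.1 to 2338 against 1388 to 2834 CPM at P0, and the P0 ranges overlapped. Microglia markers summed to 1.45 to 2.08 CPM in control-MADM and 10.7 to 52.6 in cKO-Eed-MADM at E16.5, and meningeal markers to 4.57 to 9.35 and 10.01 to 24.5, and neither list overlapped between these groups at E16.5 or, at the values given above, at P0. The part of these cell types in the rise of Apoe and the exporters was not tested.

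Mylip, a ubiquitin ligase under liver X receptor control, rose at P0 from 5.19, 6.38, 5.70, 3.03 and 2.02 to 10.7, 14.1, 15.1 and 8.67 CPM, without overlap (log2 fold change 1.44, SE 0.42, adjusted p = 0.0136). Abca1, which loads sterol onto apolipoproteins, rose (log2 fold change 0.86, SE 0.27, adjusted p = 0.0214), as did Cyp46a1, the neuronal enzyme that turns cholesterol into 24-hydroxycholesterol (0.92, adjusted p = 0.0322), and Soat1, which esterifies cholesterol (0.88, adjusted p = 0.0411), and each of these 3 overlapped between the groups. Against Eed-MADM at P0, Apoe (1.75, adjusted p = 0.000266), Abcg1 (0.98, adjusted p = 0.00304), Mylip (1.53, adjusted p = 0.00357) and Cyp46a1 (0.86, adjusted p = 0.0257) rose, 4 of 9 where 11.2% of all genes rose. In the red libraries at E16.5 Apoe rose from 45.1 and 33.2 to 199.9 and 336 CPM (2.76, SE 0.25, adjusted p = 3.64e-05) and Abcg1 from 11.04 and 30.2 to 68.8 and 61.6 (1.70, SE 0.38, adjusted p = 0.0157). The red libraries may share pools of animals with the green ones.

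**Figure D5:**
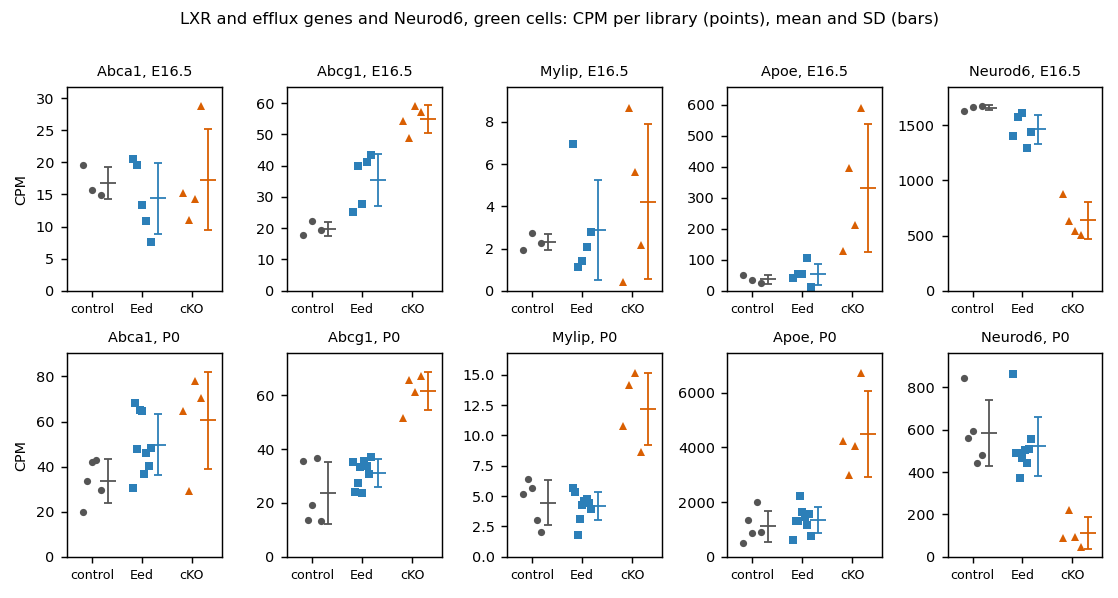
Levels (CPM, linear axis from 0) of Abca1, Abcg1, Mylip, Apoe and the projection neuron marker Neurod6 in each green library at E16.5 and P0, by group, with points for libraries and bars for the mean ± SD. Abcg1 and Apoe are higher in all 4 cKO-Eed-MADM libraries than in control-MADM at both ages, and Neurod6 is lower, at 506 to 873 CPM against 1631 to 1674 at E16.5.

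The share of all genes called in none of the comparisons of genotypes, ages or colors above was not computed. Of the 29 genes, 10 were called in none of them, a count that describes the list alone. Among these, Nsdhl read 64.4, 70.8 and 66.9 CPM in control-MADM at E16.5 and 53.6, 61.7, 38.2 and 42.7 in cKO-Eed-MADM, and Dhcr7, the final reductase of the pathway, 122, 88.2 and 104 and 91.0, 116, 83.2 and 91.3 (-0.14, adjusted p = 0.746). Mvk, mevalonate kinase, ran from 47.5 to 96.6 CPM in control-MADM and from 55.0 to 119 in cKO-Eed-MADM. Hsd17b7, a sterol ketoreductase, ran from 35.1 to 42.1 and from 28.6 to 60.05 CPM at E16.5. Idi1 stayed at 6.56 CPM or less at P0 and 4.85 or less at E16.5 in every green library used, too few reads to show differences of moderate size.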

How the data were processed

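Sorted green, red and yellow cells from pooled cortices had been sequenced by bulk Smart-Seq2 in 116 libraries. The authors deposited raw counts per gene made by STAR in its gene count mode on mm10 (GRCm38), with reads that align to more than 1 place left out. No source used here gives the annotation release behind them. The unstranded column was used (reads on strand 1 made up 49.6% to 51.4% of both strands), in 55 green libraries with at least 1000000 uniquely aligned reads that were at least 60% of all reads. In these, 18.7% to 40.0% of all reads were unmapped and 13.4% to 40.1% of the uniquely aligned reads lay in no gene or in several. Such reads stayed out of library sizes and tests. Symbols and coordinates came from GENCODE M21 (GRCm38), which matched 53274 of 53379 identifiers.

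Counts were tested in R 4.3.3 with edgeR 4.0.16 (TMM scaling, robust quasi-likelihood F test, 2-sided, Benjamini-Hochberg adjustment over all genes tested, threshold 0.05), with the 3 groups of a time point in 1 fit and genes with a mean count over 1 at E12.5 or over 10 later. Time points and the difference of differences used 1 fit of 9 groups, and red and yellow libraries a fit with color as covariate. The script was tested on simulated data. The study used DESeq2, which served as an alternative here (1.42.0). Other alternatives were size factors of DESeq2 in edgeR, no filter on low counts, all green libraries, only the groups compared, a replicate block, each replicate of groups of 2 to 5 left out, and a threshold of 0.1. Tables and figures used Python 3.11.15, numpy 2.4.6, pandas 2.3.3 and scipy 1.17.1. Precision is limited by 2 to 9 libraries per group and, at E12.5, by fewer reads.

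The 29 genes, the other gene lists and the cell type markers were chosen with earlier results of these data known. Values per library were to be given for genes called in a genotype comparison, for Srebf1, Srebf2, Scap and Insig1, and for the genes nearest the threshold, and of the other lists every gene called. Promoters were to be printed for called genes with a sterol regulatory element and for Scd2, whose window is not used here. Those of Cyp51, Msmo1, Mvd and Lss were added after the values were seen. They were the other called sterol enzymes whose stretch held both a CCAAT box and a GC box. Some genes of the list of lipid synthesis and uptake are not reported here, and its counts leave them out.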

Additional observations from a re-analysis of the deposited data

Results flagged for a closer look

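Within groups of 4 to 10 libraries, 8 of 145 sets of values of the 29 genes held a library far from the others by Dixon's test at 95%, and chance gives about 1 in 20. At P0 Scd2 read 294.45 CPM in cKO-Eed-MADM replicate 2, against 566.45 to 583.69 in the other 3. Pmvk read 158.36 CPM in control-MADM replicate 5 at P0 (others 88.13 to 100.07), and Nsdhl read 75.8 CPM in control-MADM replicate 2 at P0 (others 50.99 to 58.14). At E16.5 Insig1 read 84.71 CPM in cKO-Eed-MADM replicate 1, above 76.78 to 77.08 in the other 3. In Eed-MADM at E16.5, Mvd read 71.12 CPM in replicate 1 (others 107.38 to 113.16), Srebf2 167.46 in replicate 2 (262.06 to 284.07), Elovl6 84.66 in replicate 4 (105.55 to 112.7) and Fdft1 386.61 in replicate 5 (308.42 to 329.44). These values fall in 4 different Eed-MADM libraries, and what sets each apart was not tested.

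The difference of Me1 between cKO-Eed-MADM and control-MADM was not the same at the 2 ages. At E16.5 Me1 read 16.3, 15.2 and 14.5 CPM in control-MADM and 7.48, 7.51, 8.28 and 8.30 in cKO-Eed-MADM (-0.96, adjusted p = 0.129), lower in all 4 libraries, and at P0 it was higher in cKO-Eed-MADM, as given above. The difference of differences was 1.8122 on the log2 scale and passed the test in edgeR (1.81, SE 0.41, adjusted p = 0.0127).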

How the results depend on the processing

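Counts of the 29 genes called changed as follows. Here and in the next paragraph they stand without the share of all genes called under each setting, so they describe the 29 genes alone. With all green libraries, 1 gene was called at E13.5 in cKO-Eed-MADM and 1 in Eed-MADM against control-MADM (0 with the depth limits). At a threshold of 0.1 the counts were 7 for cKO-Eed-MADM and 3 for Eed-MADM against control-MADM at E16.5, 9 for cKO-Eed-MADM against Eed-MADM at P0 and 1 for the difference of differences in cKO-Eed-MADM. For Eed-MADM against control-MADM at E16.5 DESeq2 gave 4 and no filter 2, for the difference of differences in cKO-Eed-MADM they gave 1 and 1, and for red and yellow cells at E13.5 they gave 2 and 2. Without a filter the counts were also 1, 0 and 0 between E13.5 and E16.5 in control-MADM, then Eed-MADM, then cKO-Eed-MADM, 1 for the difference of differences in Eed-MADM and 2 for red cells at E16.5. The deviations of same-numbered libraries correlated at -0.18 to 0.33. At E12.5 all 4 such pairs of control-MADM and Eed-MADM were positive (0.092 to 0.145), but Eed-MADM replicate 3 correlated more with control-MADM replicate 2 (0.195). At E16.5 replicates 1, 2 and 3 of these groups were also positive (0.050, 0.022 and 0.117). At P0 replicates 1, 2, 4, 5 and 6 gave 0.335, 0.039, -0.017, 0.114 and 0.078. No comparison with 3 or more pairs had every pair above 0.1, so the numbers were not taken to pair libraries. Whether they pair control-MADM with Eed-MADM was not settled. A replicate block gave 0 for Eed-MADM against control-MADM at E16.5 (Scd2 at an adjusted p of 0.134 by edgeR) and 2 for cKO-Eed-MADM against Eed-MADM at P0. With the block Elovl6 (adjusted p = 0.0658) and Mvd (0.0617) were not called in cKO-Eed-MADM against control-MADM at E16.5, nor Elovl6 at P0 (0.061), nor, against Eed-MADM, Sc5d at E16.5 (0.132) and Acat2 (0.16), Elovl6 (0.193) and Srebf1 (0.143) at P0.

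Leaving out 1 library gave 1 to 4 calls for cKO-Eed-MADM, 0 to 3 for Eed-MADM against control-MADM and 7 to 11 for cKO-Eed-MADM against Eed-MADM at E16.5. At P0 it gave 5 to 6 and 2 to 5 for cKO-Eed-MADM against control-MADM and Eed-MADM. Between E13.5 and E16.5 it gave 0 to 3 in control-MADM, 0 to 5 in Eed-MADM and 0 to 1 in cKO-Eed-MADM, and between E16.5 and P0 4 to 7, 3 to 5 and 5 to 7, in the same order of groups. Srebf2 turned from -0.11 to 0.17 against control-MADM and from -0.28 to 0.0009 against Eed-MADM at P0 without cKO-Eed-MADM replicate 2, whose value of 70.6 CPM is the lowest of its group, with ranges of -0.27 to 0.17 and -0.44 to 0.0009 over the fits without 1 library. Causes of the other changes were not tested.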
